A study of Mus musculus with 2 samples.

Results

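Transit-amplifying (TA) cells, the dividing daughters of intestinal stem cells, were compared with enterocytes, the absorptive cells that line the villus, in jejunal crypts of mice that lack miR-375. The members were the cells that the authors annotated as TA or Enterocyte, 643 and 1313 cells, or 1956 of the 3275 cells kept. Replicate 1 gave 320 TA cells and 931 enterocytes, and replicate 2 gave 323 and 382. Both libraries belong to a single group, 375KO, and each came from 1 male mouse aged 12 months. The deletion is whole-body, was made with CRISPR/Cas9 in embryos of an FVB by B6 cross and was bred onto the B6 albino background, whereas the strain label reads C57BL6/2J. Dissociated crypts were captured with a 10x Genomics 3′ kit, which counts each captured RNA molecule by its unique molecular identifier (UMI). Every cell used here lacks miR-375, and wild-type cells were not analysed here, so no value below measures an effect of the deletion. The cell types were named by the authors from clusters of the same cells, so the comparison describes how far these annotated classes stand apart.

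In the small intestine, stem cells at the crypt base give rise to TA cells, which divide a few times while they move up the crypt under falling Wnt and Notch signals. Daughters of the absorptive branch leave the cell cycle near the crypt mouth, build a brush border of microvilli, and switch on hydrolases, transporters and the machinery that packs dietary fat into lipoproteins. Enterocytes go on changing as they climb the villus, from antimicrobial genes near its base to lipoprotein and nucleotide genes near its tip, before they are shed. Cell cycle genes are grouped by the factors that drive them, E2F in S phase and the MuvB complex with FOXM1 and B-MYB in mitosis, while HNF4 factors are known as regulators of absorptive genes.

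The summed UMIs were 8439649 and 5718329 for TA cells and 19366535 and 5348340 for enterocytes, in replicates 1 and 2. The median TA cell held 20811 and 16966 UMIs and 4378 and 3714 genes, and the median enterocyte 16975 and 13405 UMIs and 3469 and 3022 genes. The median mitochondrial share was 9.02% and 5.52% in TA cells and 13.2% and 7.59% in enterocytes. No barcode was shared by the libraries. Markers lay on the side of their annotation, with the 7 cell cycle markers at 0.418% and 0.377% of the UMIs of TA cells and 0.0137% and 0.0275% of those of enterocytes, and the 7 enterocyte markers at 0.251% and 0.117% of the UMIs of TA cells and 4.81% and 2.87% of those of enterocytes. Goblet markers summed to 0.0336% and 0.0157% of the UMIs of TA cells and 0.0324% and 0.0541% of those of enterocytes. Paneth, tuft, intraepithelial lymphocyte and stromal markers each stayed at or under 0.0146% in all 4 sums, with Tac1, Tph1, Mmp7 and most stromal markers too low to be tested. Enteroendocrine markers reached 0.0370% in TA cells of replicate 1, where the incretin gene Gip stood at 345 CPM (UMIs per 1000000 UMIs). No marker of tuft cells or lymphocytes passed the test between the types, whereas some markers of the other sets did. Of 6 tested goblet markers 1 was higher in enterocytes and 1 was lower. Of 4 tested enteroendocrine markers 2 were higher and 2 were lower. Of 3 tested Paneth markers 2 were higher, as was the 1 tested stromal and endothelial marker. Whether these cells move any result was not tested.

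The deposited matrices hold no UMI of Fabp1, Sis, Rbp2, Apoa1 or Reg3b in Paneth cells of either library, among 3515066 and 4363692 UMIs, although these are among the most abundant enterocyte transcripts. The authors describe a computational removal of free RNA, and whether the deposited counts were made before or after it is not given in the sources used here. The Paneth cell gene Lyz1, at 91311 and 65733 CPM in Paneth cells, had no UMI in TA cells or enterocytes of replicate 2. In replicate 1 it had 99 and 181 UMIs in them. The part of this step in the low levels of such transcripts in TA cells was not tested. Bounds given below for a count of 0 take it as a counting zero, and the part of this step in such zeros was not tested.

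UMIs were summed per library and type, and the 2 types were compared within each mouse with the quasi-likelihood test of edgeR. Log2 differences are enterocyte minus TA throughout. Of 10728 genes that passed a filter on low counts and were tested, 6036 (56.3%) passed an adjusted p of 0.05, with 3177 higher in enterocytes (29.6%) and 2859 lower (26.6%). At least a 2-fold difference was also met by 1657 higher genes (15.4%) and 1638 lower genes (15.3%). Among the called genes, 6034 had the same sign in both mice, which a call from 2 pairs nearly requires. Of all 10728 genes tested, 1405 had opposite signs in the 2 mice. For a called gene, the same direction in both mice is therefore no separate support. The p values rest on 2 mice and 1 residual degree of freedom, with the spread shared across genes. The CPM values printed below are unscaled, whereas log2 differences use TMM scaling, and without that scaling the median of all genes moved from 0.01 to -0.32. The share of called genes that were higher then fell from 52.6% to 32.0%. Lists with a median near 0 are therefore given on both scales. Counts of called list members below are to be read against the shares over all genes tested, 29.6% higher and 26.6% lower. Some list members were too low to be tested, among them Cdkn2a, Ephb3, Notum, Nkd1, Tnfrsf19, Tmprss15, Apoc2, Scarb1, Bco1, Cybrd1, Trpv6, Cyp24a1, Slc9a3, Aqp7, Cldn1, Cldn4, Cldn5, Cldn18, Prdm1, Atoh1 and Nr4a1, and counts below are of tested members.

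**Figure D1:**
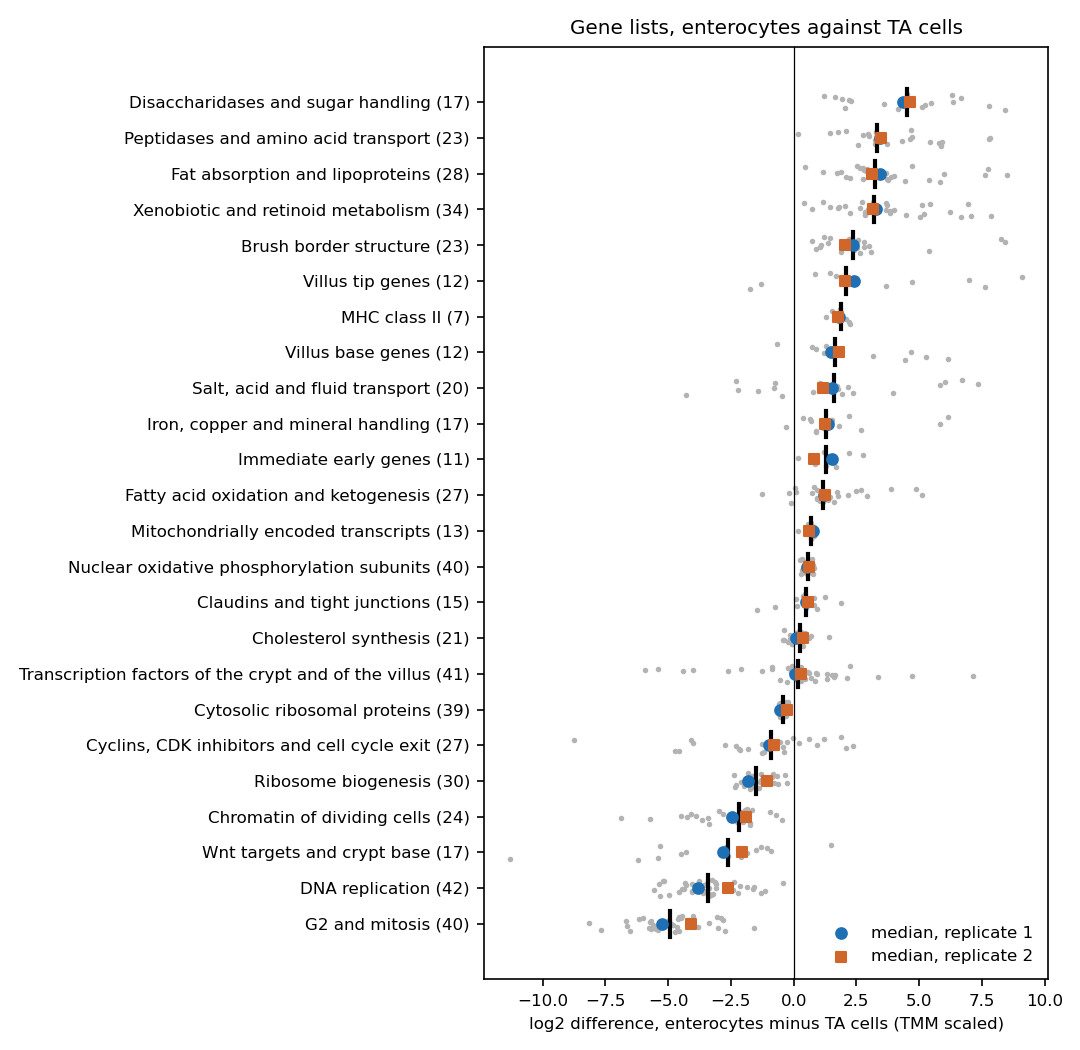
Log2 difference between enterocytes and TA cells (horizontal axis, TMM scaled) for the tested members of 24 gene lists (vertical axis, number tested in parentheses). Grey points are genes, the black bar is the fitted median, and the blue circle and orange square are the medians within replicate 1 and replicate 2; the lists run from sugar handling at 4.50 to mitosis at -4.92.

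The genes that copy DNA were lower in enterocytes without exception: all 42 tested members fell, against 26.6% of all genes tested, with a median log2 difference of -3.40 (-3.80 in replicate 1 and -2.63 in replicate 2). Together they made up 0.231% and 0.17% of the UMIs of TA cells and 0.0218% and 0.0262% of those of enterocytes. Rrm2, which encodes the regulated subunit of ribonucleotide reductase, stood at 54.6 and 56.8 CPM in TA cells and 0.568 and 2.43 CPM in enterocytes, with no overlap (log2 difference -5.35 ± 0.36 (SE), edgeR adjusted p = 3.37e-05). The helicase subunit Mcm3 had 55.3 and 35.8 CPM in TA cells and 0.775 and 1.496 CPM in enterocytes (log2 difference -5.31 ± 0.30 (SE), edgeR adjusted p = 9.54e-06). TA cells were the higher type in both mice for each of these genes. Uhrf1, which carries DNA methylation through replication, showed 47.2 and 45.5 CPM in TA cells and 0.207 and 3.37 CPM in enterocytes, so the drop was larger in replicate 1 (log2 difference -5.17 ± 0.81 (SE), edgeR adjusted p = 0.0122). Among the smaller differences was that of Pcna, the sliding clamp, at 21.6 and 46.2 CPM in TA cells and 6.14 and 16.6 CPM in enterocytes (log2 difference -1.32 ± 0.17 (SE), edgeR adjusted p = 0.000396), and processed copies of Pcna in the genome may take some of its reads.

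Orc1, the origin recognition subunit that licenses replication, was detected at 52 and 20 UMIs in TA cells and 2 and 0 UMIs in enterocytes, so it fell to the counting limit in enterocytes. Its promoter is shown because Orc1 had the largest fitted difference among the replication genes whose promoter holds an E2F motif (TTCCCGC, its variant TTCGCGC, the variant TTGGCGC and the variant TTGCCGC, on either strand). The window runs from 250 bases before the RefSeq start to 50 after it, at chr4:108579204-108579503 on the plus strand (GRCm38.p6), in the first exon at its end. Capitals mark the motif, which lies on the opposite strand, 27 bases before the RefSeq start. It lies within the GENCODE gene, whose start is 31 bases upstream of the RefSeq start.

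Orc1: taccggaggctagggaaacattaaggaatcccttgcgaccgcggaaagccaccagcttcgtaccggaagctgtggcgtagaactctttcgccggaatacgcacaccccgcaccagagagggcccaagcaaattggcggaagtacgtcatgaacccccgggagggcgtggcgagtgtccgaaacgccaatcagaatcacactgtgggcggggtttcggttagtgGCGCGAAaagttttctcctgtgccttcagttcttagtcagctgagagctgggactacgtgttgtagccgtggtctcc

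Such motifs were found in 23 of the 34 tested replication genes with a RefSeq window (67.6%), in 20.3% of all tested genes with a window and in 10.9% of 27025 genes with a window. A match is a run of letters and not a bound site.

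Mitotic genes fell further. All 40 tested members were lower in enterocytes, with a median log2 difference of -4.92 (-5.24 in replicate 1 and -4.11 in replicate 2), and they held 0.591% and 0.452% of the UMIs of TA cells and 0.0212% and 0.0356% of those of enterocytes. Top2a, the topoisomerase that untangles chromosomes, stood at 406 and 310.2 CPM in TA cells and 2.01 and 4.86 CPM in enterocytes (log2 difference -6.66 ± 0.35 (SE), edgeR adjusted p = 3.76e-05). The mitotic kinase Cdk1 had 207 and 109 CPM in TA cells and 1.24 and 2.06 CPM in enterocytes (log2 difference -6.54 ± 0.30 (SE), edgeR adjusted p = 5.59e-06). In both mice each of these genes was more than an order of magnitude lower in enterocytes, with no overlap. Aurkb, the kinase of the chromosomal passenger complex, dropped from 71.4 and 53.9 CPM to 3 UMIs in each enterocyte sum, which is the counting limit. Ube2c, the ubiquitin carrier of the anaphase-promoting complex, had 581 and 397 CPM in TA cells and 10.1 and 16.1 CPM in enterocytes (log2 difference -4.97 ± 0.28 (SE), edgeR adjusted p = 3.84e-05). Mki67, a marker of dividing cells, had 327 and 199 CPM in TA cells and 4.91 and 12.7 CPM in enterocytes (log2 difference -4.79 ± 0.60 (SE), edgeR adjusted p = 0.00878), and this call was lost at differences of nearly the same size with other size factors, with unscaled totals and with no filter on low counts (log2 differences -4.82, -5.09 and -4.74, edgeR adjusted p = 0.0675, 0.1 and 0.171). The smallest difference in the list was that of the checkpoint gene Bub3, at 137 and 93.4 CPM in TA cells and 28.4 and 33.5 CPM in enterocytes (log2 difference -1.58 ± 0.18 (SE), edgeR adjusted p = 0.000228).

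Kif2c, a kinesin that depolymerises microtubules at centromeres, had 312 and 138 UMIs in TA cells and 1 and 1 UMIs in enterocytes. It had the largest fitted difference among the mitotic genes whose promoter holds TTTGAA, the core of the cell cycle homology region (CHR), and so its window is shown with that of Top2a, the strongest such gene above 100 CPM, which was picked after its values were seen. The Kif2c window, chr4:117178723-117179022 on the minus strand, belongs to a RefSeq start that lies 3867 bases inside the annotated gene, 28 bases from the start of another transcript. The Top2a window, chr11:99024140-99024439 on the minus strand, belongs to a RefSeq start that is also the annotated gene start. It carries 2 matches, 179 and 23 bases before that start. Capitals mark the matches, on either strand, and TTCAAA is the motif read from the opposite strand.

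Kif2c: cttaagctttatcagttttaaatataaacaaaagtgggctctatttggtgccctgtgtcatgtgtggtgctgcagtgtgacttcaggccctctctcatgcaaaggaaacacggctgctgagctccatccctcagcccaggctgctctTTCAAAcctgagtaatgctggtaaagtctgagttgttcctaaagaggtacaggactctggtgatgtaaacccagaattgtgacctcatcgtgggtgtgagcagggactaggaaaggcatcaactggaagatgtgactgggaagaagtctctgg
Top2a: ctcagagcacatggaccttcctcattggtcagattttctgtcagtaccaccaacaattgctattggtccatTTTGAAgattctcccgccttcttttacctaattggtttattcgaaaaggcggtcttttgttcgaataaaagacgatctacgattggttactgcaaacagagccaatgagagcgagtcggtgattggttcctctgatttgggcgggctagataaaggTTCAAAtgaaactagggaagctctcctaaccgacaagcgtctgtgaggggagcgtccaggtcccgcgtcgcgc

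TTTGAA was present in 27 of 35 tested mitotic genes with a window (77.1%), in 14.6% of all tested genes with a window and in 20.2% of all genes with a window. A motif of 6 letters is short and is frequent by composition alone.

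Regulators of the G1 step did not move as a block. Of 27 tested cyclins, kinases, inhibitors and exit genes, 15 were lower, 6 were higher and 6 did not pass, against 26.6% lower and 29.6% higher among all genes tested, with a median of -0.89. Cyclin E1 (Ccne1) stood at 16.5 and 15.7 CPM in TA cells and 0.258 and 1.12 CPM in enterocytes (log2 difference -4.72 ± 0.42 (SE), edgeR adjusted p = 7.12e-05). E2f7, which represses S phase genes, had no UMI in either enterocyte sum and stood at 4.86 and 11.4 CPM in TA cells. Taken as a counting zero, this makes it at least 20.3-fold higher there (3 counts taken as the limit in each library, the smaller of the 2 ratios). The D-type cyclins, which couple growth signals to division, fell less, with Ccnd2 at 517 and 533 CPM in TA cells and 140.2 and 251 CPM in enterocytes (log2 difference -1.16 ± 0.17 (SE), edgeR adjusted p = 0.00103). Ccnd3 did not pass (log2 difference -0.40 ± 0.17 (SE), edgeR adjusted p = 0.0836).

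The inhibitors of cyclin-dependent kinases were split between the types. Cdkn1a, which encodes p21, rose from 48.5 and 63.8 CPM in TA cells to 184 and 187 CPM in enterocytes (log2 difference 2.07 ± 0.15 (SE), edgeR adjusted p = 3.09e-05). Cdkn2b, which encodes p15, rose from 64.3 and 33.8 to 202 and 183 CPM (log2 difference 2.34 ± 0.18 (SE), edgeR adjusted p = 3.41e-05). Both were higher in enterocytes of both mice. The related inhibitors Cdkn2c and Cdkn2d went the other way, at 26.9 and 37.6 CPM in TA cells and 4.18 and 6.36 CPM in enterocytes (log2 difference -2.30 ± 0.18 (SE), edgeR adjusted p = 4.16e-05) for Cdkn2c and at 32.3 and 27.3 CPM in TA cells and 4.34 and 2.24 CPM in enterocytes (log2 difference -2.74 ± 0.23 (SE), edgeR adjusted p = 5.66e-05) for Cdkn2d. Cdkn1b, which encodes p27 and is a textbook mark of cells that left the cycle, was lower in enterocytes by 0.75 on the log2 scale (edgeR adjusted p = 0.00878). Anti-proliferative genes Btg1 and Btg2 rose (0.62 ± 0.12 and 1.20 ± 0.16 log2 units, SE, edgeR adjusted p = 0.00333 and 0.000572). The retinoblastoma gene Rb1 was higher in enterocytes (log2 difference 0.91 ± 0.16 (SE), edgeR adjusted p = 0.00195), its relative Rbl1 was lower (log2 difference -1.25 ± 0.18 (SE), edgeR adjusted p = 0.00085), and Rbl2 did not pass (log2 difference 0.20 ± 0.19 (SE), edgeR adjusted p = 0.401).

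Chromatin and tubulin genes that are abundant in dividing cells were lower in 23 of 24 tested cases, with a median of -2.19 (-2.47 in replicate 1 and -1.89 in replicate 2). Stmn1, which destabilises microtubules, went from 704 and 557 CPM to 20.6 and 35.7 CPM (log2 difference -4.23 ± 0.27 (SE), edgeR adjusted p = 5.76e-05). The chromatin protein gene Hmgb2 stood at 1311 and 1493 CPM in TA cells and 73.0 and 159.9 CPM in enterocytes (log2 difference -3.37 ± 0.22 (SE), edgeR adjusted p = 2.36e-05). Ezh2, the methyltransferase of Polycomb complex 2, had 101 and 70.5 CPM in TA cells and 19.0 and 13.5 CPM in enterocytes (log2 difference -2.06 ± 0.14 (SE), edgeR adjusted p = 1.76e-05), whereas its partner Suz12 fell by 0.96 on the log2 scale (edgeR adjusted p = 0.000541). The replication-dependent histone Hist1h2ae was the member that did not pass, at 49.2 and 12.1 CPM in TA cells and 1.60 and 4.30 CPM in enterocytes. Most replication-dependent histone mRNAs lack a poly(A) tail, and a 3′ kit counts them poorly.

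Wnt target and crypt base genes fell next. Of 17 tested members 16 were lower in enterocytes and 1 was higher, with a median of -2.63 (-2.80 in replicate 1 and -2.05 in replicate 2). Axin2, a feedback inhibitor that reads out Wnt signalling, stood at 46.4 and 57.2 CPM in TA cells and 9.14 and 9.72 CPM in enterocytes (log2 difference -2.09 ± 0.16 (SE), edgeR adjusted p = 3.76e-05). Myc, a driver of growth, had 21.7 and 35.3 CPM in TA cells and 1.81 and 7.11 CPM in enterocytes (log2 difference -2.63 ± 0.28 (SE), edgeR adjusted p = 0.000177), and Sox9 had 51.1 and 51.4 CPM in TA cells and 7.23 and 13.6 CPM in enterocytes (log2 difference -2.09 ± 0.21 (SE), edgeR adjusted p = 0.000128). TA cells were higher than enterocytes in both mice for all of these. Cd44 and Ephb2, a hyaluronan receptor and a receptor that sorts cells along the crypt, fell by 4.49 and 1.85 on the log2 scale (edgeR adjusted p = 1.78e-05 and 5.28e-05). The exception was Sp5, a Wnt-induced repressor, at 5.92 and 4.02 CPM in TA cells and 14.6 and 7.11 CPM in enterocytes (log2 difference 1.48 ± 0.24 (SE), edgeR adjusted p = 0.00148).

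Stem markers were low in TA cells but lower still in enterocytes, with all 8 falling and a median of -4.70 (-4.66 in replicate 1 and -2.89 in replicate 2). Lgr5, the receptor that marks crypt base stem cells, had 76 and 44 UMIs in TA cells and 2 and 0 UMIs in enterocytes. Olfm4, a secreted glycoprotein of the stem zone, had no UMI in enterocytes and 47.8 and 4.197 CPM in TA cells. Taken as a counting zero, this makes it at least 7.48-fold higher in TA cells by the smaller of the 2 library ratios. With Olfm4 at that bound the median of the 8 stem markers was -3.60, and with the 1 member at 0 of each of the lists of cyclins, Wnt targets and villus tip genes at its bound those medians did not move. In stem cells Olfm4 reached 313 and 14.3 CPM. The stem cell factor Ascl2 had 142 and 133 UMIs in TA cells and 6 and 2 UMIs in enterocytes.

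The machinery that makes ribosomes was reduced. Of 30 tested ribosome biogenesis genes 28 were lower and 2 did not pass (Ltv1 and Bop1), with a median of -1.503 (-1.80 in replicate 1 and -1.05 in replicate 2). Ncl, the nucleolar protein nucleolin, stood at 791 and 531 CPM in TA cells and 145 and 170.1 CPM in enterocytes (log2 difference -1.72 ± 0.18 (SE), edgeR adjusted p = 0.000169). Npm1, which shuttles ribosomal subunits, had 1320.0 and 887 CPM in TA cells and 295 and 344 CPM in enterocytes (log2 difference -1.44 ± 0.18 (SE), edgeR adjusted p = 0.000365). Polr1a, the large subunit of RNA polymerase I, had 23.9 and 23.3 CPM in TA cells and 4.60 and 5.98 CPM in enterocytes (log2 difference -1.87 ± 0.20 (SE), edgeR adjusted p = 0.000161). All of these were higher in TA cells of both mice, and every one of the 30 was called lower on unscaled totals.

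Ribosomal protein mRNAs themselves moved less. The 39 members summed to 12.8% and 17.1% of the UMIs of TA cells and 6.64% and 11.6% of those of enterocytes. Of these members 22 were called lower, against 26.6% of all genes tested, and 17 did not pass. Their median was -0.42 (-0.56 in replicate 1 and -0.28 in replicate 2). Rpl3 had 3341 and 3362 CPM in TA cells and 1496 and 2208 CPM in enterocytes (log2 difference -0.56 ± 0.16 (SE), edgeR adjusted p = 0.0202). Rps14 did not pass, at 4608 and 7579.7 CPM in TA cells and 2831 and 5705 CPM in enterocytes (log2 difference -0.23 ± 0.15 (SE), edgeR adjusted p = 0.227). With unscaled totals all 39 were called lower with a median of -0.75, and with no replicate block 0 were, with a median of -0.39. Among cells that passed a stricter filter only 2 were called lower, with a median of -0.19. That filter (at least 2500 genes and at most 10% mitochondrial UMIs) kept 205 and 296 TA cells and 145 and 289 enterocytes. Many ribosomal protein genes have processed copies that may share reads.

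**Figure D2:**
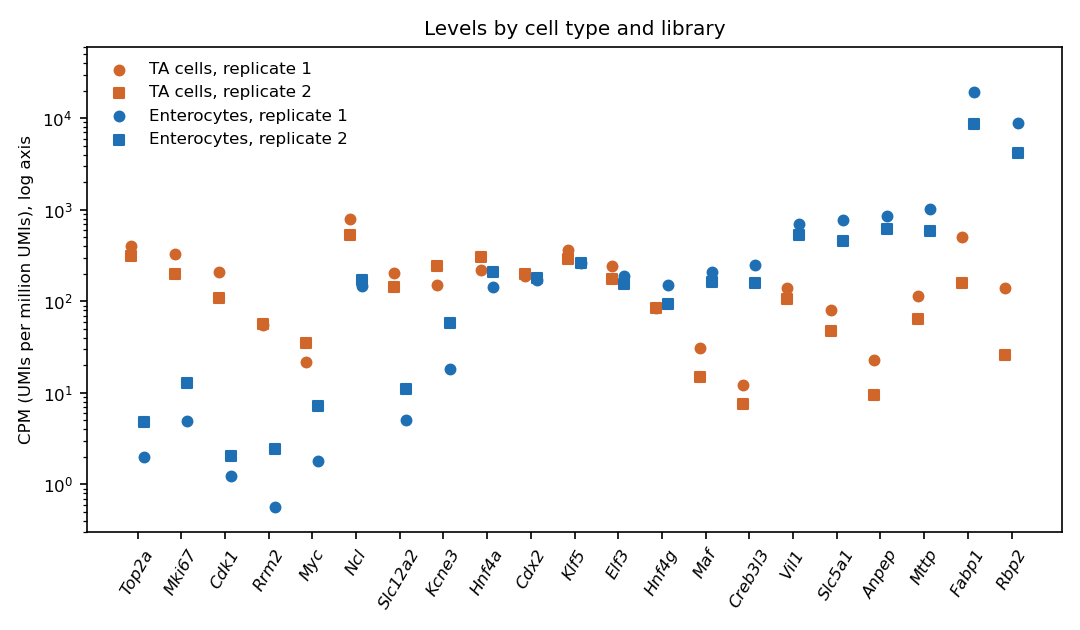
CPM (UMIs per 1000000 UMIs, log axis) of 21 genes in the 4 sums, with TA cells in orange and enterocytes in blue, circles for replicate 1 and squares for replicate 2. Top2a sits above 300 CPM in TA cells and under 5 CPM in enterocytes, Hnf4a, Cdx2, Klf5 and Elf3 lie close together, and Fabp1 rises from 507 and 158 CPM to 19464 and 8639.9 CPM.

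The scaffold of the brush border rose as a whole, with all 23 tested genes higher in enterocytes, against 29.6% of all genes tested, and a median of 2.36 (2.37 in replicate 1 and 2.05 in replicate 2). Vil1 encodes villin, which bundles the actin core of microvilli, and stood at 139 and 107 CPM in TA cells and 703 and 532 CPM in enterocytes (log2 difference 2.65 ± 0.13 (SE), edgeR adjusted p = 5.05e-06). Cdhr2 and Cdhr5, the cadherins that link neighbouring microvilli, had 43.6 and 28.0 CPM in TA cells and 252 and 143 CPM in enterocytes for Cdhr2 (log2 difference 2.78 ± 0.14 (SE), edgeR adjusted p = 5.87e-06) and 78.0 and 54.7 CPM in TA cells and 478 and 364 CPM in enterocytes for Cdhr5 (log2 difference 3.001 ± 0.13 (SE), edgeR adjusted p = 3.33e-06). In both mice enterocytes were several times above TA cells, but TA cells already carried these mRNAs at more than 20 CPM. Other parts of the scaffold were nearly restricted to enterocytes. Espn, the actin bundler espin, had 6.04 and 2.45 CPM in TA cells and 176 and 109 CPM in enterocytes (log2 difference 5.40 ± 0.18 (SE), edgeR adjusted p = 2.41e-06), and Tmigd1, an adhesion protein of microvilli, had 1 and 0 UMIs in TA cells and 341 and 136 UMIs in enterocytes. The smallest rise was that of Baiap2l2, which binds curved membranes, at 96.9 and 84.8 CPM in TA cells and 115 and 123 CPM in enterocytes (log2 difference 0.71 ± 0.12 (SE), edgeR adjusted p = 0.00208).

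Sugar digestion and handling showed the largest list median, 4.50 (4.33 in replicate 1 and 4.64 in replicate 2), and all 17 tested genes were higher in enterocytes. The list rose from 0.157% and 0.0804% of UMIs in TA cells to 0.816% and 0.451% in enterocytes. Sis encodes sucrase-isomaltase and stood at 240.1 and 53.3 CPM in TA cells and 2359 and 1107 CPM in enterocytes (log2 difference 4.14 ± 0.25 (SE), edgeR adjusted p = 2.38e-05). Lct, the lactase gene, had 12 and 0 UMIs in TA cells and 4628 and 1147 UMIs in enterocytes, or 239 and 214 CPM in enterocytes. The 0 in TA cells of replicate 2 allows up to 0.525 CPM of the lactase mRNA. Slc5a1, the sodium-driven glucose transporter, had 80.5 and 47.2 CPM in TA cells and 776 and 455 CPM in enterocytes (log2 difference 3.60 ± 0.13 (SE), edgeR adjusted p = 2.41e-06), while Slc2a5, the fructose transporter, had 3.08 and 0.874 CPM in TA cells and 74.0 and 45.1 CPM in enterocytes (log2 difference 5.21 ± 0.23 (SE), edgeR adjusted p = 3.88e-06). Slc2a2, the basolateral sugar exit, was at 1.07 and 0.175 CPM in TA cells and 181 and 36.8 CPM in enterocytes, from 9 UMIs and 1 UMI in the TA sums. The glucose-producing enzymes G6pc and Pck1 had 3 and 2 UMIs in TA cells of replicate 1 and reached 31.3 and 11.8 CPM and 20.7 and 15.0 CPM in enterocytes. Mgam, maltase-glucoamylase, was already at 175 and 183 CPM in TA cells and rose to 656 and 519 CPM (log2 difference 2.03 ± 0.16 (SE), edgeR adjusted p = 3.42e-05). Among cells that passed the stricter filter 14 of 16 were called, and Sis and Slc5a1 were not, with log2 differences of 3.31 and 2.53 (edgeR adjusted p = 0.172 and 0.121).

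Protein digestion rose in the same direction, with 22 of 23 tested genes higher and a median of 3.30 (3.42 in replicate 1 and 3.48 in replicate 2). Anpep, aminopeptidase N, stood at 22.9 and 9.44 CPM in TA cells and 847 and 619 CPM in enterocytes (log2 difference 5.89 ± 0.20 (SE), edgeR adjusted p = 2.41e-06). The meprin subunit Mep1b had 16.8 and 4.90 CPM in TA cells and 666 and 256 CPM in enterocytes (log2 difference 5.79 ± 0.16 (SE), edgeR adjusted p = 2.05e-06). Slc6a19, a transporter of neutral amino acids, had 8.53 and 2.45 CPM in TA cells and 141 and 86.2 CPM in enterocytes (log2 difference 4.72 ± 0.22 (SE), edgeR adjusted p = 4.63e-06). All were higher in enterocytes of both mice without overlap. Slc15a1, the peptide transporter PepT1, was found at 5 and 0 UMIs in TA cells and 1361 and 313 UMIs in enterocytes. Dpp4, the peptidase that cuts incretins, was present in TA cells at 48.8 and 32.0 CPM and rose to 247 and 141 CPM (log2 difference 2.58 ± 0.14 (SE), edgeR adjusted p = 8.12e-06). Slc1a1, an acidic amino acid transporter, was the member that did not pass, at 66.7 and 43.2 CPM in TA cells and 43.6 and 55.0 CPM in enterocytes, lower in enterocytes of replicate 1 and higher in those of replicate 2 (log2 difference 0.16 ± 0.20 (SE), edgeR adjusted p = 0.533).

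Fat absorption genes took a larger share of the enterocyte UMIs in both mice than the lists of the brush border, sugars, peptides, drugs, minerals or salt, at 0.312% and 0.175% of the UMIs of TA cells and 5.22% and 3.19% of those of enterocytes. Of 28 tested members 27 were higher, with a median of 3.22 (3.42 in replicate 1 and 3.10 in replicate 2). Fabp1 and Fabp2 encode the fatty acid carriers of the enterocyte, and Fabp1 had 507 and 158 CPM in TA cells and 19464 and 8639.9 CPM in enterocytes (log2 difference 5.84 ± 0.21 (SE), edgeR adjusted p = 2.41e-06). Fabp2 had 1007 and 639.7 CPM in TA cells and 15045 and 12504 CPM in enterocytes (log2 difference 4.42 ± 0.19 (SE), edgeR adjusted p = 3.33e-06). Both carriers were higher in enterocytes of both mice. Mogat2, which rebuilds triglyceride, stood at 38.3 and 22.9 CPM in TA cells and 395 and 249 CPM in enterocytes (log2 difference 3.73 ± 0.13 (SE), edgeR adjusted p = 2.41e-06), and Mttp, which loads it onto apolipoprotein B, at 115 and 64.4 CPM in TA cells and 1029 and 588 CPM in enterocytes (log2 difference 3.50 ± 0.13 (SE), edgeR adjusted p = 2.42e-06). The fatty acid receptor Cd36 had 0.592 and 1.75 CPM in TA cells and 36.9 and 35.3 CPM in enterocytes (log2 difference 5.40 ± 0.33 (SE), edgeR adjusted p = 1.17e-05).

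Apolipoproteins rose as well. Apoa4 went from 22.7 and 2.45 CPM in TA cells to 2411 and 1001 CPM in enterocytes (log2 difference 7.64 ± 0.42 (SE), edgeR adjusted p = 8.44e-05). Apoc3 rose from 24.9 and 13.5 to 1211 and 714 CPM (log2 difference 5.99 ± 0.16 (SE), edgeR adjusted p = 2.05e-06), and Apob from 66.7 and 24.8 to 772 and 342 CPM (log2 difference 3.98 ± 0.14 (SE), edgeR adjusted p = 2.41e-06). Apoa1 was the member that did not pass, at 54.9 and 1.57 CPM in TA cells and 6342 and 4137 CPM in enterocytes (log2 difference 8.48 ± 1.56 (SE), edgeR adjusted p = 0.0596). Its TA level differed by an order of magnitude between the mice, with 463 UMIs in replicate 1 and 9 UMIs in replicate 2. Apoa1 was called higher by the Wald test of DESeq2, with all 9 types in the fit, with thinned cells, without mitochondrial genes and with no block (log2 differences from 7.90 to 9.38, adjusted p from 6.10e-07 to 0.0481). Pnpla2, the lipase of stored fat, showed the smallest rise (log2 difference 0.47 ± 0.14 (SE), edgeR adjusted p = 0.0206). Under the stricter filter 22 of the 28 fat absorption genes were called, and Fabp1, Fabp2, Apob and Mttp were not, with log2 differences of 4.72, 3.07, 2.73 and 2.59 (edgeR adjusted p = 0.107, 0.182, 0.146 and 0.0684). Pnpla2 (log2 difference 0.09, edgeR adjusted p = 0.617) and Apoa1 were the other members not called.

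Enzymes that handle drugs, bile acids and vitamin A were higher in 32 of 34 tested cases, with a median of 3.19 (3.26 in replicate 1 and 3.14 in replicate 2) and 0.142% and 0.0788% of the UMIs of TA cells and 1.81% and 1.03% of those of enterocytes. Rbp2, the carrier that holds absorbed retinol, stood at 139.8 and 25.7 CPM in TA cells and 8805 and 4141 CPM in enterocytes (log2 difference 6.93 ± 0.36 (SE), edgeR adjusted p = 2.65e-05). Cyp3a11, a major drug-oxidising enzyme, had 3.44 and 0.525 CPM in TA cells and 209 and 114 CPM in enterocytes (log2 difference 6.65 ± 0.27 (SE), edgeR adjusted p = 3.15e-06). Gsta1, a glutathione transferase, had 34.5 and 4.02 CPM in TA cells and 1239.8 and 640.4 CPM in enterocytes (log2 difference 6.22 ± 0.55 (SE), edgeR adjusted p = 0.00216), with the larger difference in replicate 2. Aldh1a1, which makes retinoic acid, had 22.3 and 5.25 CPM in TA cells and 509 and 373 CPM in enterocytes (log2 difference 5.44 ± 0.36 (SE), edgeR adjusted p = 0.000175). Enterocytes were higher in both mice for these 4 genes. The xenobiotic receptors Nr1i2 (PXR) and Nr1i3 (CAR) rose less (1.16 ± 0.14 and 2.74 ± 0.19 log2 units, SE, edgeR adjusted p = 0.000321 and 2.24e-05). The members that did not pass were Lrat, which esterifies retinol, at 13.2 and 15.2 CPM in TA cells and 17.2 and 11.8 CPM in enterocytes, and Ugt1a1, at under 3 CPM in every sum. Under the stricter filter 26 of 32 were called, and Rbp2, Gsta1 and Aldh1a1 were not, although their log2 differences were 5.73, 5.34 and 4.18 (edgeR adjusted p = 0.133, 0.139 and 0.17). Members of the Cyp2c, Cyp3a, Ces2 and Gsta families have close relatives, and reads may be split among them.

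Promoters of absorptive genes were searched for CAAAGTCCA, a core motif bound by HNF4 factors. Pdzk1, a scaffold that anchors transporters in the brush border, had the largest fitted difference among the called genes whose window holds the motif, from 3 and 1 UMIs in TA cells and 1765 and 322 UMIs in enterocytes. Cyp3a11 is shown as the strongest such gene above 100 CPM, picked after its values were seen. The Pdzk1 window is chr3:96829815-96830114 on the plus strand (GRCm38.p6), and its match begins 14 bases after the RefSeq start. The Cyp3a11 window is chr5:145879805-145880104 on the minus strand, with the match 109 bases before the RefSeq start and within the GENCODE gene, which begins 110 bases further upstream. Capitals mark the matches.

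Pdzk1: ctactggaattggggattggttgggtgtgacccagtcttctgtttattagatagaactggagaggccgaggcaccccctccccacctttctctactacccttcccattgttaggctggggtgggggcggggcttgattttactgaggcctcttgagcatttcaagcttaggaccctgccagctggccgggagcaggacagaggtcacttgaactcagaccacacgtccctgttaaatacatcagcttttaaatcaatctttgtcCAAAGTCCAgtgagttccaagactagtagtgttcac
Cyp3a11: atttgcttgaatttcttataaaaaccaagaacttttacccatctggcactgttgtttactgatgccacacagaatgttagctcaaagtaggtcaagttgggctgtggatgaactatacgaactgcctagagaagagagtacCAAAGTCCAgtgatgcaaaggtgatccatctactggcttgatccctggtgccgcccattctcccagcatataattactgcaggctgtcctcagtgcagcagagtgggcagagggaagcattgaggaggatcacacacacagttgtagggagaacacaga

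The motif was found in 6 of 153 tested absorptive and metabolic genes with a window (3.92%), against 0.596% of all tested genes with a window and 0.555% of all genes with a window. Besides these 2 genes they were Treh, Cyp2c65, Slc3a1 and Sult1b1. All 6 were higher in enterocytes, as were most members of their lists, and the low share holds for these exact letters in these short windows only.

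Mineral handling rose in 14 of 17 tested genes, with a median of 1.30 (1.38 in replicate 1 and 1.24 in replicate 2). Fth1 and Ftl1, the ferritin subunits that store iron, were abundant in both types, with Fth1 at 4654 and 3202 CPM in TA cells and 9142 and 6323 CPM in enterocytes (log2 difference 1.30 ± 0.15 (SE), edgeR adjusted p = 0.000277). Heph, the ferroxidase for iron export, had 15.2 and 14.5 CPM in TA cells and 84.0 and 66.0 CPM in enterocytes (log2 difference 2.67 ± 0.16 (SE), edgeR adjusted p = 1.08e-05). Slc40a1, the iron exporter itself, was under 4 CPM in every sum and did not pass (log2 difference 0.89 ± 0.38 (SE), edgeR adjusted p = 0.081). Tfrc, the receptor for transferrin iron, was lower in enterocytes by CPM in both mice, at 133 and 137 CPM in TA cells and 80.3 and 96.1 CPM in enterocytes, and did not pass either (log2 difference -0.29 ± 0.12 (SE), edgeR adjusted p = 0.0721). The zinc importer Slc39a4 rose (log2 difference 1.80 ± 0.13 (SE), edgeR adjusted p = 2.81e-05), as did the metallothioneins Mt1 (log2 difference 1.31 ± 0.13 (SE), edgeR adjusted p = 0.000135) and Mt2 (log2 difference 1.41 ± 0.13 (SE), edgeR adjusted p = 7.25e-05).

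Ion transport genes differed in both directions. Of 20 tested genes 12 were higher, 6 were lower and 2 did not pass, against 29.6% higher and 26.6% lower among all genes tested, with a median of 1.62 (1.54 in replicate 1 and 1.17 in replicate 2). Genes of chloride secretion were among those that fell. Slc12a2, which loads chloride into secreting cells, had 206 and 143 CPM in TA cells and 5.06 and 11.03 CPM in enterocytes (log2 difference -4.30 ± 0.38 (SE), edgeR adjusted p = 0.000592). The potassium channel subunits that drive secretion fell too, with Kcne3 at 149.9 and 240.3 CPM in TA cells and 18.4 and 58.3 CPM in enterocytes (log2 difference -2.21 ± 0.21 (SE), edgeR adjusted p = 0.00014) and Kcnq1 at 58.8 and 70.5 CPM in TA cells and 14.4 and 25.99 CPM in enterocytes (log2 difference -1.43 ± 0.16 (SE), edgeR adjusted p = 0.000223). TA cells were higher in both mice for all 3. Cftr, the chloride channel, differed little, at 87.0 and 92.3 CPM in TA cells and 47.2 and 57.2 CPM in enterocytes (log2 difference -0.46 ± 0.12 (SE), edgeR adjusted p = 0.0147).

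Genes of salt absorption and acid-base exchange were among those that rose. Slc26a3, which takes up chloride in exchange for bicarbonate, had 46.0 and 26.8 CPM in TA cells and 179.9 and 112 CPM in enterocytes (log2 difference 2.34 ± 0.13 (SE), edgeR adjusted p = 8.25e-06), and its relative Slc26a6 had 22.04 and 8.74 CPM in TA cells and 249 and 125 CPM in enterocytes (log2 difference 3.97 ± 0.15 (SE), edgeR adjusted p = 2.41e-06). Both were higher in enterocytes of both mice. The sodium pump subunit Atp1b1 rose to 1254 and 699 CPM (log2 difference 1.49 ± 0.15 (SE), edgeR adjusted p = 0.000131), while the subunit Atp1b3 fell (log2 difference -0.80 ± 0.19 (SE), edgeR adjusted p = 0.00957). Guca2b, the hormone uroguanylin, went from 30.7 and 6.30 CPM to 2329 and 1912 CPM (log2 difference 7.35 ± 0.56 (SE), edgeR adjusted p = 0.00109), and its receptor Gucy2c rose by far less (log2 difference 1.06 ± 0.13 (SE), edgeR adjusted p = 0.000343). Guanylin, Guca2a, had 15.996 and 3.85 CPM in TA cells and 289 and 768 CPM in enterocytes and did not pass (log2 difference 5.82 ± 1.19 (SE), edgeR adjusted p = 0.0704), since its difference was much larger in replicate 2.

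Junction genes moved a little. Of 15 tested, 10 were higher, 1 was lower and 4 did not pass, with a median of 0.50. Among all genes tested 29.6% were higher and 26.6% lower. With unscaled totals 5 of the 15 were higher and 2 lower with a median of 0.18. Cldn2, a claudin that forms leaky sodium pores, was the lower one, at 47.0 and 58.9 CPM in TA cells and 11.4 and 20.8 CPM in enterocytes (log2 difference -1.46 ± 0.16 (SE), edgeR adjusted p = 0.000206). Cldn15, the other pore-forming claudin of the small intestine, had 312 and 217 CPM in TA cells and 412 and 313 CPM in enterocytes (log2 difference 0.79 ± 0.12 (SE), edgeR adjusted p = 0.000849). The pair thus differed in opposite directions in both mice. Cldn23 showed the largest rise (log2 difference 1.90 ± 0.16 (SE), edgeR adjusted p = 4.95e-05).

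Fatty acid oxidation genes were higher in 22 of 27 tested cases, lower in 1, with a median of 1.17 (1.22 in replicate 1 and 1.27 in replicate 2). Acadm, a mitochondrial dehydrogenase of medium chains, had 113 and 64.2 CPM in TA cells and 219.9 and 137 CPM in enterocytes (log2 difference 1.36 ± 0.12 (SE), edgeR adjusted p = 7.28e-05), and the coactivator Ppargc1a had 17.7 and 6.47 CPM in TA cells and 74.3 and 46.7 CPM in enterocytes (log2 difference 2.70 ± 0.19 (SE), edgeR adjusted p = 2.24e-05). Both were higher in enterocytes of both mice. Cpt1a, which admits fatty acids to mitochondria, did not pass, at 75.2 and 94.3 CPM in TA cells and 51.8 and 76.5 CPM in enterocytes (log2 difference -0.10 ± 0.12 (SE), edgeR adjusted p = 0.532).

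Respiratory chain genes rose slightly on the scaled values. Of 40 nuclear subunits 37 were higher with a median of 0.57, and of 13 mitochondrially encoded transcripts 12 were higher with a median of 0.69. With unscaled totals 3 of 40 and 1 of 13 were higher, with medians of 0.24 and 0.37. With no replicate block 0 of 40 and 0 of 13 were called, with medians of 0.57 and 0.72. These calls thus rest on the scaling and on the block. Sdhb, a subunit of complex II, had 492 and 425 CPM in TA cells and 643 and 636 CPM in enterocytes (log2 difference 0.81 ± 0.12 (SE), edgeR adjusted p = 0.000993). mt-Co1, a subunit of complex IV, had 13736 and 10166 CPM in TA cells and 18979 and 14942 CPM in enterocytes (log2 difference 0.84 ± 0.16 (SE), edgeR adjusted p = 0.0034). Enterocytes were higher in both mice for these 2 genes by CPM as well. The mitochondrial share of a cell was also higher in enterocytes, as given above, and its part in this difference was not tested.

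Cholesterol synthesis stood near the middle of all genes. With unscaled totals 1 of 21 tested genes was higher and 4 were lower with a median of -0.09. On the scaled values 4 were higher, against 29.6% of all genes tested, and 17 did not pass. The scaled median was 0.26 (0.08 in replicate 1 and 0.39 in replicate 2). Sc5d, a late sterol desaturase, had 35.7 and 19.8 CPM in TA cells and 67.9 and 48.4 CPM in enterocytes and was the largest of the 4 (log2 difference 1.42 ± 0.14 (SE), edgeR adjusted p = 0.000115). Sqle, squalene epoxidase, leaned the other way without passing (log2 difference -0.44 ± 0.17 (SE), edgeR adjusted p = 0.063).

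Genes that vary along the villus were present at both ends. Of 12 villus base genes 9 were higher, 1 was lower and 2 did not pass, against 29.6% higher and 26.6% lower among all genes tested. Their median was 1.64 (1.49 in replicate 1 and 1.78 in replicate 2). Reg3g, an antimicrobial lectin, had 757 and 339 CPM in TA cells and 4553 and 2802 CPM in enterocytes (log2 difference 3.14 ± 0.17 (SE), edgeR adjusted p = 6.81e-06). Its relative Reg3b stood at 1040.0 and 30.4 CPM in TA cells and 13360.5 and 2524 CPM in enterocytes, so its TA level varied more between the mice than its enterocyte level (log2 difference 5.25 ± 0.98 (SE), edgeR adjusted p = 0.0398). The cytokine Il18 had 19.9 and 2.62 CPM in TA cells and 321 and 97.6 CPM in enterocytes (log2 difference 4.68 ± 0.23 (SE), edgeR adjusted p = 7.49e-06). Dmbt1, a scavenger receptor, was the lower member, at 652 and 531 CPM in TA cells and 259.5 and 334 CPM in enterocytes (log2 difference -0.67 ± 0.15 (SE), edgeR adjusted p = 0.00727). Reads of the Reg3 genes may be shared, since they are close relatives.

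Of 12 villus tip genes 8 were higher, 2 were lower and 2 did not pass, against 29.6% higher and 26.6% lower among all genes tested. Their median was 2.10 (2.40 in replicate 1 and 2.05 in replicate 2). Klf4, a factor of terminal differentiation, had 14.7 and 8.57 CPM in TA cells and 45.2 and 35.3 CPM in enterocytes (log2 difference 2.13 ± 0.16 (SE), edgeR adjusted p = 3.72e-05), and Apobec1, which edits the apolipoprotein B mRNA, had 1.66 and 1.75 CPM in TA cells and 19.1 and 15.1 CPM in enterocytes (log2 difference 3.69 ± 0.26 (SE), edgeR adjusted p = 2.45e-05). Enpp3, an ectonucleotidase, had no UMI in TA cells and 8.73 and 2.80 CPM in enterocytes, at least 5.35-fold higher by the smaller of the 2 library ratios. Ada, which deaminates adenosine and is known from the villus tip, was low in both types and lower in enterocytes, at 5.45 and 4.55 CPM in TA cells and 0.981 and 1.68 CPM in enterocytes (log2 difference -1.74 ± 0.40 (SE), edgeR adjusted p = 0.00722). The tip genes Nt5e and Slc28a2 were too low to be tested. Egfr fell as well, at 12.9 and 14.3 CPM in TA cells and 4.65 and 3.74 CPM in enterocytes (log2 difference -1.30 ± 0.24 (SE), edgeR adjusted p = 0.00243).

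All 7 tested genes of MHC class II antigen presentation were higher in enterocytes, with a median of 1.87 (1.81 in replicate 1 and 1.78 in replicate 2). Cd74, the invariant chain, had 563 and 666 CPM in TA cells and 1306 and 1497 CPM in enterocytes (log2 difference 1.52 ± 0.14 (SE), edgeR adjusted p = 7.33e-05). H2-Ab1 had 100.1 and 119.6 CPM in TA cells and 384 and 409 CPM in enterocytes (log2 difference 2.18 ± 0.13 (SE), edgeR adjusted p = 1.17e-05). Enterocytes were above TA cells in both mice. Lymphocyte markers summed to 0.00223% and 0.000507% of UMIs in TA cells and to 0.00368% and 0.0146% in enterocytes, and their part in these values was not tested.

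Immediate early genes, which respond within minutes to growth factors and to tissue dissociation, were higher in 7 of 11 tested cases, against 29.6% of all genes tested. Their median was 1.27 and was larger in replicate 1 (1.54 in replicate 1 and 0.82 in replicate 2). Atf3 had 5.45 and 5.95 CPM in TA cells and 52.8 and 11.03 CPM in enterocytes (log2 difference 2.75 ± 0.65 (SE), edgeR adjusted p = 0.0316), and Fos had 45.7 and 61.9 CPM in TA cells and 200.2 and 90.7 CPM in enterocytes without passing (log2 difference 1.70 ± 0.51 (SE), edgeR adjusted p = 0.0689). Egr1 was higher in enterocytes of replicate 1 and lower in those of replicate 2. The part of dissociation in these values was not tested.

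Transcription factors differed in both directions. Of 41 tested regulators 17 were higher, 10 were lower and 14 did not pass, against 29.6% higher and 26.6% lower among all genes tested, with a median of 0.16, and with unscaled totals 12 were higher and 14 lower with a median of -0.16. Cell cycle factors were among the lower ones. Foxm1, which drives mitotic genes, had 19.9 and 35.5 CPM in TA cells and 0.155 and 0.748 CPM in enterocytes, from 3 and 4 UMIs in enterocytes. Mybl2, its partner B-MYB, had 13.7 and 23.8 CPM in TA cells and 0.413 and 1.12 CPM in enterocytes (log2 difference -4.42 ± 0.30 (SE), edgeR adjusted p = 1.87e-05). Sox4 had 91.4 and 74.5 CPM in TA cells and 2.63 and 7.48 CPM in enterocytes (log2 difference -4.01 ± 0.39 (SE), edgeR adjusted p = 0.000694).

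Several factors known to set intestinal and absorptive identity differed by less than 2-fold on the scaled values. Hnf4a had 219 and 306 CPM in TA cells and 143 and 210.2 CPM in enterocytes and did not pass (log2 difference -0.25 ± 0.12 (SE), edgeR adjusted p = 0.0968), but it was called lower in enterocytes with unscaled totals (log2 difference -0.58, edgeR adjusted p = 0.00488) and under the stricter filter (log2 difference -0.34, edgeR adjusted p = 0.00443). Cdx2, the master factor of intestinal identity, had 191 and 201 CPM in TA cells and 169.6 and 180.1 CPM in enterocytes (log2 difference 0.16 ± 0.12 (SE), edgeR adjusted p = 0.266). Klf5 had 365 and 293 CPM in TA cells and 263 and 265 CPM in enterocytes (log2 difference 0.02 ± 0.12 (SE), edgeR adjusted p = 0.919), and Elf3 had 244 and 175 CPM in TA cells and 187 and 154 CPM in enterocytes (log2 difference 0.04 ± 0.12 (SE), edgeR adjusted p = 0.766). For Hnf4a, Cdx2, Klf5 and Elf3 the CPM values were higher in TA cells of both mice. The scaled differences were near 0 for Klf5 and Elf3, 0.16 for Cdx2 and -0.25 for Hnf4a. Hnf4g, the paralogue of Hnf4a, rose, at 83.7 and 84.1 CPM in TA cells and 151 and 93.3 CPM in enterocytes (log2 difference 0.85 ± 0.20 (SE), edgeR adjusted p = 0.00885). Cdx1 fell, at 149 and 278 CPM in TA cells and 65.8 and 186 CPM in enterocytes (log2 difference -0.56 ± 0.15 (SE), edgeR adjusted p = 0.0138). Gata4 and Gata6, which set the jejunal programme, rose slightly on the scaled values (0.35 ± 0.13 and 0.46 ± 0.13 log2 units, SE, edgeR adjusted p = 0.0488 and 0.0185).

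Factors linked to mature enterocytes rose most. Creb3l3, a membrane-bound factor that controls triglyceride metabolism, had 12.2 and 7.52 CPM in TA cells and 247 and 157 CPM in enterocytes (log2 difference 4.69 ± 0.15 (SE), edgeR adjusted p = 2.05e-06). Maf, known as a regulator of enterocyte maturation, had 31.2 and 15.0 CPM in TA cells and 207 and 163 CPM in enterocytes (log2 difference 3.37 ± 0.18 (SE), edgeR adjusted p = 6.64e-06). The lipid-sensing nuclear receptors Nr1h3 (LXRα) and Nr1h4 (FXR) had 26.7 and 21.0 CPM in TA cells and 60.6 and 59.6 CPM in enterocytes for Nr1h3 (log2 difference 1.66 ± 0.14 (SE), edgeR adjusted p = 5.16e-05) and 23.5 and 13.3 CPM in TA cells and 45.0 and 39.1 CPM in enterocytes for Nr1h4 (log2 difference 1.53 ± 0.17 (SE), edgeR adjusted p = 0.000214). All were higher in enterocytes of both mice.

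The Zfp36 family, RNA-binding proteins that destabilise mRNAs with AU-rich elements, was split. Zfp36l2, the gene the study followed, had 174 and 150.4 CPM in TA cells and 73.1 and 67.9 CPM in enterocytes (log2 difference -0.87 ± 0.12 (SE), edgeR adjusted p = 0.000615), so it was lower in enterocytes of both mice. Zfp36 had 24.1 and 28.2 CPM in TA cells and 117 and 80.4 CPM in enterocytes (log2 difference 2.25 ± 0.22 (SE), edgeR adjusted p = 0.000141) and went the other way. Zfp36l1 did not pass (log2 difference -0.07 ± 0.13 (SE), edgeR adjusted p = 0.642).

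**Figure D3:**
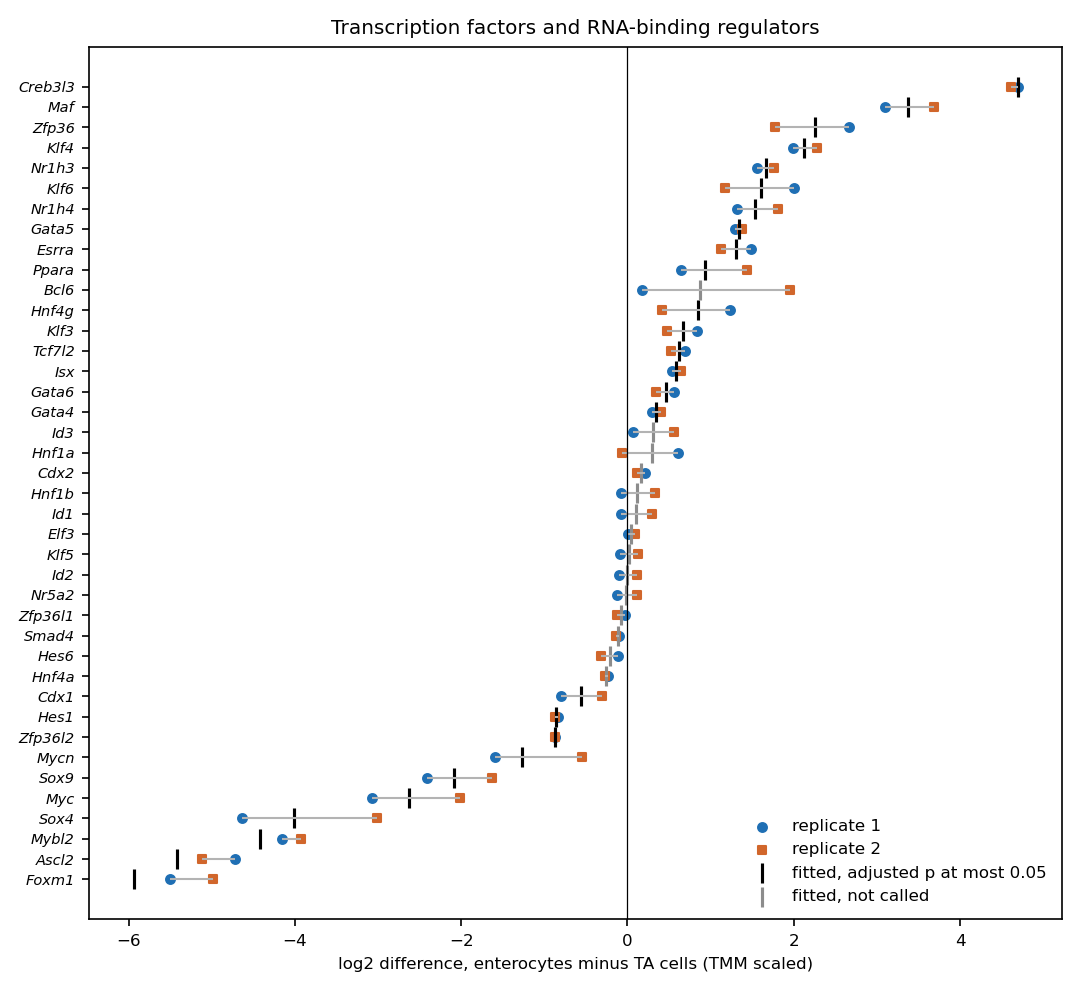
Log2 difference between enterocytes and TA cells (horizontal axis, TMM scaled) of 40 of the 41 tested regulators (vertical axis). Blue circles are replicate 1, orange squares replicate 2, and bars the fitted value, black where the adjusted p is at most 0.05 and grey where it is not; Creb3l3 and Maf lie at the top in both mice, Foxm1, Ascl2 and Mybl2 at the bottom, and Hnf4a, Cdx2, Klf5 and Elf3 near 0. For Foxm1, Ascl2 and Mybl2, which rest on few UMIs in the lower type, the fitted value lies outside the 2 library values.

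Within each annotated type the cells fell into several of the clusters the authors made, 4 of TA cells (numbered 13, 10, 5 and 8) and 5 of enterocytes (2, 6, 9, 3 and 1). These clusters were made from the same genes, so their values describe them and were not tested. They are listed by the median share of a cell's UMIs in 94 absorption genes, so its rise along the list follows from the listing. The ranking was the same in both mice. The median was 0.377% and 0.26% in cluster 13 of the TA cells, 0.823% and 0.575% in cluster 8, 1.14% and 0.677% in cluster 2 of the enterocytes, and 14.3% and 13.7% in cluster 1. Clusters 10 and 5 of the TA cells also differed in cell cycle genes. Replication genes summed to 0.434% and 0.349% of UMIs in cluster 10 and 0.189% and 0.128% in cluster 5. Mitotic genes summed to 0.332% and 0.281% in cluster 10 and 0.800% and 0.593% in cluster 5. The share in 82 proliferation genes was 1.05% and 0.681% in cluster 5, 0.511% and 0.433% in cluster 8, and 0.0777% and 0.0917% in cluster 2. Cluster 8 of the TA cells thus had the lowest proliferation share and the highest absorption share of its type in both mice. Cluster 2, the enterocytes with the lowest absorption share, was already low in proliferation genes.

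Ribosomal protein mRNAs went from 14.9% and 20.4% of a cell's UMIs in cluster 13 to 11.7% and 15.2% in cluster 8 of the TA cells, and from 12.0% and 16.7% in cluster 2 to 1.79% and 2.83% in cluster 1 of the enterocytes. The median mitochondrial share was 10.2% and 5.89% in cluster 2 and 15.1% and 9.65% in cluster 1. The median cell held 3430 and 3110 genes in cluster 2 and 3220.5 and 2743 genes in cluster 1. The part of cell quality in the lower ribosomal share of cluster 1 was not tested. Between cluster 8 and cluster 2, where the annotation changes from TA to enterocyte, the ribosomal share was slightly higher on the enterocyte side in both mice. Cluster 1 made up 30.3% of enterocytes in replicate 1 and 18.8% in replicate 2, and cluster 2 made up 19.7% and 28.0%. The enterocyte sums of the mice thus hold different shares of the most and least absorptive cells, and the part of this in the differences between the mice was not tested. Cells kept by the stricter filter came mostly from the less absorptive clusters in replicate 1, where 6 of the 282 cells of cluster 1 and 81 of the 183 cells of cluster 2 were kept.

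**Figure D4:**
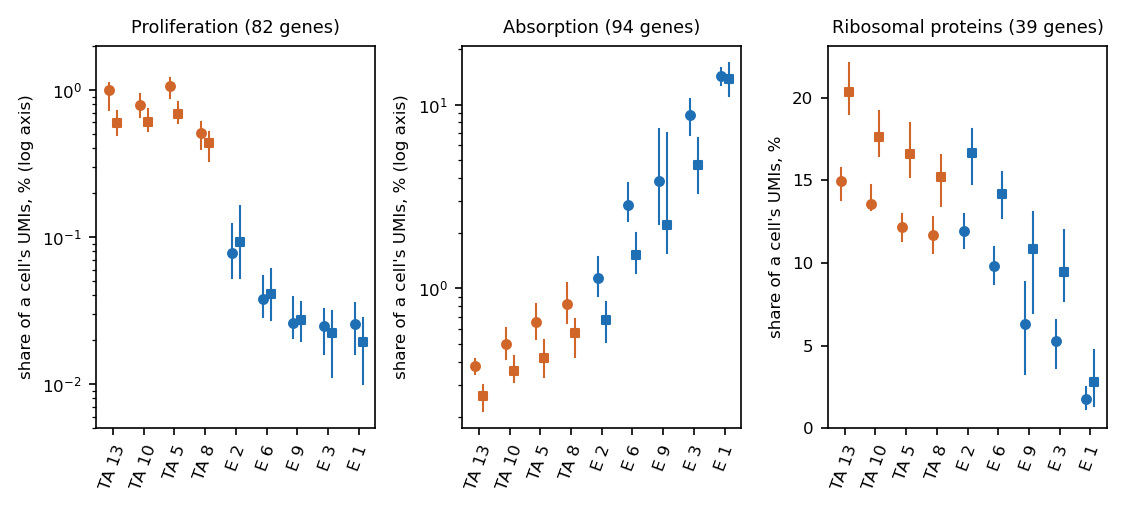
Share of a cell's UMIs in proliferation genes (82 genes, log axis), absorption genes (94 genes, log axis) and ribosomal protein genes (39 genes, linear axis) by cluster, with TA clusters in orange and enterocyte clusters (E) in blue. Circles are medians of replicate 1, squares of replicate 2, and lines span the middle 50% of cells; proliferation drops between TA 8 and E 2, where ribosomal proteins do not fall.

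Single genes marked the late clusters. Lct, the lactase gene, reached 602 and 868 CPM in cluster 1 and 251 and 259.8 CPM in cluster 3, but 4.29 and 0 CPM in cluster 2. Apoa4 stood at 7011 and 5387 CPM in cluster 1 and at 25.1 and 11.8 CPM in cluster 2. Klf4 was highest in cluster 1, at 111 and 102 CPM. Cluster 9 did not fall on this line. It held Fabp6, the carrier of bile acids that is known from the ileum, at 20948 and 6438 CPM, whereas cluster 2 had the next level in replicate 1, at 550.3 CPM, and cluster 1 in replicate 2, at 152 CPM. Its Reg3b level was the highest of all clusters, at 36478 and 6542 CPM. Fabp1, by contrast, stood at 1729 and 1491 CPM in cluster 9 and at 39426 and 31536 CPM in cluster 1. The tissue is labelled jejunum, and whether some ileum was included cannot be told apart from jejunal cells with Fabp6. Cluster 9 made up 10.6% and 15.2% of enterocytes.

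In the comparison of the 2 types Fabp6 accordingly stood at 56.0 and 4.72 CPM in TA cells and 2689 and 1109.5 CPM in enterocytes (log2 difference 6.72 ± 0.64 (SE), edgeR adjusted p = 0.00347), among the 10 abundant genes that rose most. Outside the lists, these were joined by Leap2, a liver-expressed antimicrobial peptide that also blocks the ghrelin receptor, at 1.30 and 1.05 CPM in TA cells and 269 and 142 CPM in enterocytes (log2 difference 7.82 ± 0.22 (SE), edgeR adjusted p = 2.05e-06), and by Gda, guanine deaminase, at 6.64 and 3.67 CPM in TA cells and 408 and 197 CPM in enterocytes (log2 difference 6.21 ± 0.17 (SE), edgeR adjusted p = 2.05e-06). Both were near absent from TA cells of both mice.

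Counts per cell were also compared after each cell was thinned to 5000 UMIs. Mki67 was detected in 70.9% and 57.3% of TA cells and in 1.83% and 4.71% of enterocytes. Without thinning the shares were 93.8% and 90.7%, and 6.12% and 10.7%. Sis was detected in 49.7% and 17.0% of TA cells and in 96.6% and 81.4% of enterocytes after thinning, and in 70.9%, 33.1%, 98.9% and 92.1% before it. Among types of the secretory branch, Sis was found after thinning in 0 of 78 and 0 of 54 Paneth cells, which allows shares of up to 3.85% and 5.56%, in 5.07% and 1.45% of goblet cells and in 12.8% and 13.2% of tuft cells, at median depths before thinning of 44684 and 80820.0, 13649 and 15709 and 8630.0 and 13017 UMIs. The Paneth limits take these zeros as counting zeros, although the matrices hold no UMI of Sis in any Paneth cell, as given above. The part of free RNA removal in them was not tested. The median Paneth cell held 1918 and 2161 genes despite its depth. In stem cells the shares with Sis were 13.2% and 4.27%. The exact 95% intervals for TA cells were 44.1 to 55.3% and 13.1 to 21.6%, and those for tuft cells 4.30 to 27.4% and 4.41 to 28.1%, and cover counting error only. The TA and tuft intervals for Sis overlapped in replicate 2 and not in replicate 1. Not every enterocyte gene was rarer in secretory types than in TA cells. After thinning Fabp2 was found in 94.4% and 85.4% of TA cells, 100% and 98.6% of goblet cells and 43.6% and 18.4% of tuft cells. Fabp1 was found in 30.9% and 13.6% of TA cells, 3.26% and 0.725% of goblet cells and 33.3% and 36.8% of tuft cells. Cells of 1 mouse are not replicates, so the difference between the types was not tested. Mki67 was found after thinning in 7.69% and 13.2% of tuft cells.

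Other cell types were used to place the 2 classes. Mki67 stood at 75.7 and 28.1 CPM in stem cells and 243 and 188 CPM in goblet progenitors, against 327 and 199 CPM in TA cells. Top2a had 49.3 and 28.7, 297 and 244 and 406 and 310.2 CPM in the same order. Stem cells thus had less Mki67 and Top2a mRNA than goblet progenitors and TA cells in both mice. TA cells were higher than goblet progenitors in both mice for these 2 genes, and these differences were not tested.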

How the data were processed

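Libraries were made from jejunal crypts of 2 375KO mice. The authors aligned reads to mm10 with Cell Ranger 3.0.1 and deposited UMI counts per gene and barcode, and the mitochondrial percent of each cell. They removed free RNA with SoupX (from which file is not given in the sources used here) and doublets with scDblFinder, filtered cells on genes and mitochondrial reads, and named clusters in Seurat by module scores. Annotations were joined by cell order, and 3275 of 3275 cells matched the series table in UMI total and gene number. The counts summed here came from the matrices of each library, in which 1358 of 3275 cells had the annotated UMI total. The gap had a median of 1 UMI, reached 262 UMIs and was at most 1.27% of a cell's UMIs. The 2937 cell columns of another series and the normalised scores were not used.

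The deposited counts of 27998 named genes were summed per mouse and type, filtered with filterByExpr, scaled with TMM and fitted with the robust quasi-likelihood test of edgeR 4.0.16 (R 4.3.3, limma 3.58.1). Mouse was a block, since both sums of a library come from the same animal, and the library differences of the types had r = 0.674 across genes, which are not independent replicates. Tests were two-sided, with Benjamini-Hochberg adjustment and a threshold of 0.05, on 1 residual and a median of 6.58 prior degrees of freedom. The standard error is the size of the log2 difference over the square root of F. Differences within 1 mouse were computed with a prior count of 2 and were not tested.

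The members and gene lists were chosen with earlier results of these data known. Genes were named as the largest or smallest differences of a list, as exceptions to its direction or for their role, and outside the lists as the 10 largest called differences in each direction at 100 CPM or more in both libraries. On simulated data 84% of 2-fold and 97% of 4-fold changes were recovered, with 3 false calls among 10566 genes. The simulation changed 100 genes at each fold and gave every gene the same dispersion, 0.0126. In the data 56.3% of the genes were called and the spread differed between genes. The simulated false calls therefore do not measure those among the 6036 calls. Alternatives were DESeq2 1.42.0, other scalings, no count filter, no block, all 9 epithelial types, thinning, a stricter cell filter, no mitochondrial genes and each mouse alone. A few list members are counted in their lists and not reported here by name. Promoters came from RefSeq (GRCm38.p6) and positions of genes from GENCODE on the same build. Intervals and the limit for a count of 0 (3 counts) cover counting error only.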

Additional observations from a re-analysis of the deposited data

How the results depend on the processing

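The direction of 25 of the 27 list medians held under every alternative tried, and those of the transcription factors and of cholesterol synthesis turned with unscaled totals, an alternative added after the data were seen. Both types came from the same mice, and the pairing held by this design. With no replicate block the calls fell to 2545 (1395 higher and 1150 lower), of which 2540 were among the 6036, and 31 of the 111 named genes that were called lost their call. Unscaled totals gave 2050 genes higher and 4364 lower in enterocytes. DESeq2 called 1862 lower in its Wald test, and the stricter cell filter left 1005 genes that were at least 2-fold higher.

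List medians that moved by more than the spread between the mice are given by setting, on the log2 scale. They were, with unscaled totals, enterocyte markers 4.09, cyclins and inhibitors -1.22, ribosomal proteins -0.75, brush border 2.02, sugar handling 4.16, peptidases 2.97, fat absorption 2.89, fatty acid oxidation 0.85, xenobiotic metabolism 2.85, mineral handling 0.98, salt transport 1.29, villus base 1.31, villus tip 1.77, transcription factors -0.16, oxidative phosphorylation 0.24, mitochondrial transcripts 0.37, cholesterol synthesis -0.0858, junctions 0.18, MHC class II 1.54 and all genes -0.32. They were, with the stricter cell filter, enterocyte markers 3.31, cyclins and inhibitors -0.69, ribosomal proteins -0.19, brush border 1.60, sugar handling 3.28, peptidases 2.72, fat absorption 2.43, fatty acid oxidation 0.94, xenobiotic metabolism 2.65, mineral handling 0.998, salt transport 0.80, villus tip 0.98, oxidative phosphorylation 0.45, mitochondrial transcripts 0.34, junctions 0.42, MHC class II 1.60, immediate early genes 0.60 and all genes -0.0415. With all 9 epithelial types in the fit they were peptidases 3.38, fatty acid oxidation 1.25, oxidative phosphorylation 0.65, junctions 0.66, MHC class II 1.95 and all genes 0.0592. With cells thinned to 5000 UMIs they were sugar handling 4.11, peptidases 3.52, fat absorption 3.45, xenobiotic metabolism 3.35, oxidative phosphorylation 0.51 and MHC class II 2.01. With no filter on low counts they were peptidases 3.35, fatty acid oxidation 1.22, oxidative phosphorylation 0.62, MHC class II 1.92 and all genes 0.0436. The median of all genes was -0.00607 with the size factors of DESeq2 and -0.0089 in its Wald test. Leaving out either mouse left 1 pair and no test, and gave medians of TA markers -4.76 to -3.69, stem markers -4.66 to -2.89, mitosis -5.24 to -4.11, Wnt targets -2.80 to -2.05, brush border 2.05 to 2.37, peptidases 3.42 to 3.48, fatty acid oxidation 1.22 to 1.27, salt transport 1.17 to 1.54, villus tip 2.05 to 2.40, MHC class II 1.78 to 1.81 and all genes -0.00192 to 0.0284.

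Values that changed sign were those of genes near 0 that had not passed. With unscaled totals Cdx2 stood at -0.16, Elf3 at -0.28, Klf5 at -0.31, Rbl2 at -0.14 and Slc1a1 at -0.17. Klf5 stood at -0.0031 with the size factors of DESeq2, at -0.0029 in its Wald test and from -0.0883 to 0.12 when either mouse was left out, where Slc1a1 ran from -0.23 to 0.61. Elf3 turned when cells were thinned (-0.0297), Cpt1a and Tfrc under the stricter cell filter (0.0291 and 0.0108), and Zfp36l1 with all 9 types in the fit (0.00835). Among named genes, calls were lost with unscaled totals for Atf3, Baiap2l2, Btg1, Fabp6, Gata4, Gata6, Mki67, Pnpla2, Reg3b, Uhrf1 and mt-Co1, with the stricter cell filter for Aldh1a1, Apob, Dmbt1, Fabp1, Fabp2, Fabp6, Gata4, Gata6, Gsta1, Guca2b, Klf4, Mttp, Pnpla2, Rbp2, Reg3b, Rpl3, Sis, Slc5a1 and Sp5, with the size factors of DESeq2 for Atf3, Gata4, Mki67, Reg3b and Uhrf1, in its Wald test for Ada, Cdkn1b, Cftr, Gata4, Gata6 and Pnpla2, with no filter for Atf3, Fabp6, Gsta1, Guca2b, Mki67 and Reg3b, with all 9 types for Ccnd2, Cftr, Dmbt1 and Gata4, and with thinned cells for Gata4 and Reg3b. Of 84 lost calls in all, 70 stood within 0.5 log2 units of the reported difference. Calls were gained in 27 cases, by Apoa1 in 5, Fos in 4, Guca2a in 4, Tfrc in 3, Ccnd3 in 2, Hnf4a in 2, Sqle in 2, Cpt1a in 1, Rps14 in 1, Slc1a1 in 1, Slc40a1 in 1 and Zfp36l1 in 1. The causes were not tested. The stricter filter kept 6 of the 282 and 32 of the 72 cells of cluster 1, the most absorptive, and the part of this in the lost calls was not tested.

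With 2 mice the p values lean on a spread shared across genes. Transcripts at 0 or at a few UMIs in the lower type, among them 25 and 67 tested genes at 0 in TA cells and 40 and 60 in enterocytes, allow only a bound. These bounds cover counting error only. The parts of free RNA and of its removal in values of abundant enterocyte transcripts in TA cells and in counts of 0 were not tested. The part of the different cluster make-up in the enterocyte sums was not tested either.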
